A study of Homo sapiens with 8 samples.

Results

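The keratins are the cytoplasmic intermediate filament proteins of epithelial cells. Each filament is built from obligate pairs of a type I and a type II keratin, and the pair that a cell makes follows its kind of epithelium. Simple epithelia such as the bile duct carry KRT8 with KRT18 and KRT7 with KRT19, squamous epithelia carry KRT5 with KRT14 and, in differentiation or injury, KRT1 with KRT10 and KRT6 with KRT16, and the hair shaft has keratins of its own. Here the members were all genes on the array named KRT followed by a number and at most 1 letter, which gave 55 keratin genes, read by 60 probes, among 34809 gene names. Of these, 27 were tested among 20464 genes.

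RNA came from HuCCT1, an established human cholangiocarcinoma cell line, and was hybridized to 8 single-colour arrays. Control cells carried the vector shControl (2 arrays) or shNontarget (2 arrays), and BEX2-knockdown cells carried shBEX2-1 (2 arrays) or shBEX2-2 (2 arrays), each a short hairpin RNA against BEX2, a small protein of the brain-expressed X-linked family. The 2 target sequences that the methods list for BEX2 are nearly reverse complements of each other. The sublines are therefore not counted as hairpins against separate sites. The shRNAs were delivered by a retroviral vector to otherwise untreated cells, and whether paired arrays of 1 vector stand for independent cultures is not given in the sources used here, so p-values measure the spread between arrays, which may be technical. The comparison asks which keratins the cells carry and whether they change when BEX2 is knocked down.

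The BEX2 probe gave intensities of 71, 56, 115 and 49 on the control arrays (shControl first), 11.9 and 11.1 on the shBEX2-1 arrays, and 20.4 and 26.0 on the shBEX2-2 arrays. All 4 knockdown arrays lay below all 4 control arrays. BEX2 fell by 1.63 on the log2 scale (SE 0.319, limma adjusted p = 0.0116) over the 4 knockdown arrays. The call was lost against the shNontarget arrays alone (-1.83, limma adjusted p = 0.0786) and with normexp background correction (-0.45, limma adjusted p = 0.0797). In shBEX2-1 cells the probe was not well above background. The measured BEX2 values were 3.83-fold lower there than in control cells, a fold that rests on background readings. Its adjusted p in shBEX2-1 over the alternatives ran from 0.000304 to 0.239 (limma). In shBEX2-2 cells its log2 change of -1.32 did not pass the test (limma adjusted p = 0.0813). The scanner software marked 59.8% to 64.6% of spots per array as well above background and none as saturated. The 75th percentile of intensity was 666 to 838 on control arrays and 441 to 631 on knockdown arrays, and each level below is log2 intensity minus that percentile. The shNontarget arrays stood apart from each other, with 34.9% of tested genes differing by over 1 on the log2 scale against 0.562% to 1.76% for the other vectors, so results are also given without them. All control arrays lay in row 1 of the slide and all knockdown arrays in row 2, so slide row and BEX2 knockdown cannot be told apart.

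The keratins of the bile duct were all present in HuCCT1 cells, beside keratins of other epithelia. KRT7, KRT8, KRT18 and KRT19 were well above background on all 8 arrays, as were 23 of the 55 keratins. By class, this held for 5 of 6 simple keratins, the exception being KRT20, an intestinal keratin that was above background on no array. It held for 11 of 22 stratified, 1 of 9 inner root sheath and 6 of 17 hair keratins. Another 11 keratins were above background on some arrays and 21 on none.

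The stratified keratins present on all arrays were KRT3, KRT6B, KRT9, KRT10, KRT13, KRT14, KRT15, KRT16, KRT17, KRT78 and KRT80. KRT5, the type II partner of KRT14 in basal keratinocytes, was above background on no array, and its intensity stayed between 3 and 5. KRT1, the partner of KRT10 in the upper epidermis, was above background on 1 array, with an intensity of 11.3 on shControl replicate 2. Thus KRT14 and KRT10 were above background on all 8 arrays, and their usual squamous partners on at most 1. KRT79 was above background on 7 arrays, KRT4 and KRT6A on 4, and KRT76 on 1, whereas KRT2, KRT6C, KRT12, KRT24 and KRT77 were on none.

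Among the hair keratins, KRT31, KRT34, KRT81, KRT83, KRT85 and KRT86 were present on all 8 arrays and KRT32 on 7. KRT81, a type II keratin of the hair cortex, gave between 85493 and 181584 intensity units. The probe that stood for KRT83 gave between 9900 and 26731, and the array design also lists transcripts of KRT81 and KRT85 for it, so that its signal cannot be assigned to KRT83 alone. A dimmer KRT83 probe with no other gene listed gave at most 3928 units and was also above background on all 8 arrays. KRT33B was above background on 2 arrays and KRT33A and KRT40 on 1. KRT35, KRT36, KRT37, KRT38, KRT39, KRT82 and KRT84 were not above background on any. Of the inner root sheath keratins KRT73 was present on all arrays at 473 to 852, KRT74 was on 1, and KRT25, KRT26, KRT27, KRT28, KRT71, KRT72 and KRT75 were on none. KRT222, a truncated keratin-like gene given no class here, was above background on 3 arrays.

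**Figure D1:**
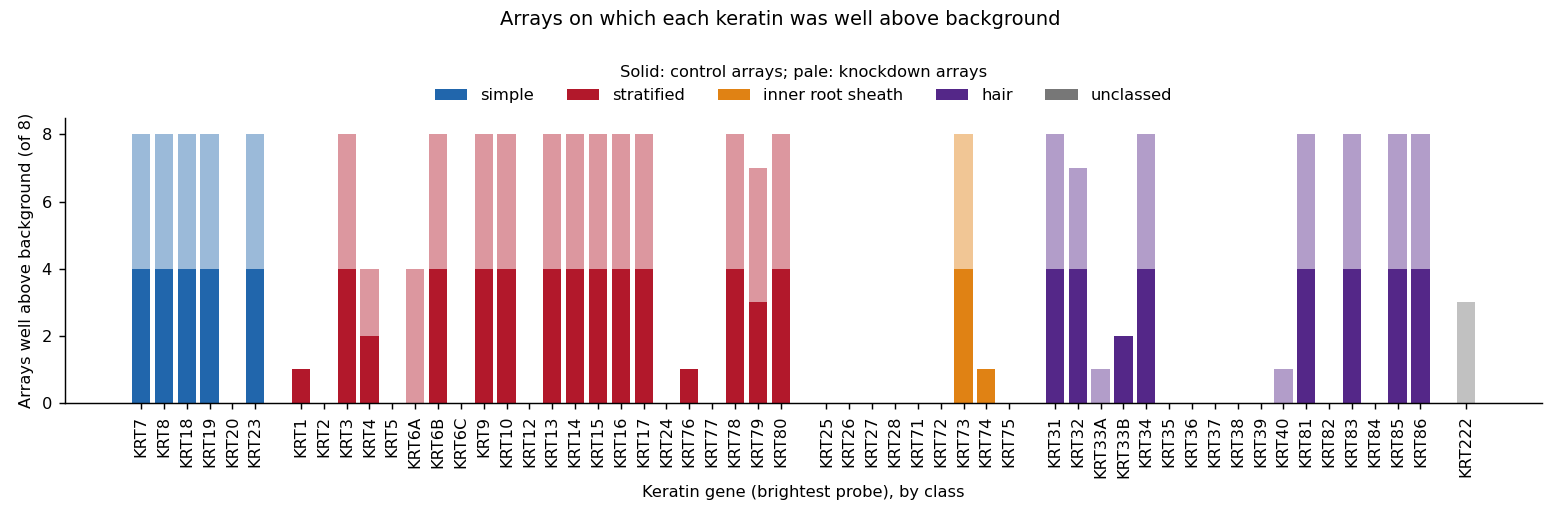
The number of arrays (0 to 8) on which the brightest probe of each of the 55 keratins was well above background, with solid bars for the 4 control and pale bars for the 4 knockdown arrays, coloured by class. Of the 6 simple keratins 5 reached 8 arrays, and KRT6A was above background on the 4 knockdown arrays alone.

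In BEX2-knockdown cells 4 of the 27 tested keratins passed the test, KRT6A and KRT8 upward and KRT16 and KRT23 downward. This was 14.8% of the tested keratins, and 12.9% of all tested genes passed (6.68% upward and 6.26% downward), so the share called was near that of all genes. KRT6A entered the test only through the knockdown arrays, and among the 23 keratins above background on all 8 arrays 3 passed, or 13.0% beside 13.4% of all such genes. The median log2 change was 0.06 over the 14 tested type II and -0.38 over the 13 tested type I keratins, against 0.03 over all genes. Over the 5 tested simple keratins it was 0.20, and over the 4 biliary ones, which leave out KRT23, it was 0.33. Over the 14 stratified keratins it was -0.11. Over the 7 hair keratins it was -0.27, or -0.38 with the KRT83 probe that lists no other gene (-0.73) in place of the brighter one (-0.27).

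KRT8 is the main type II keratin of simple epithelia. Its intensity was 14690 and 15695 on the shControl arrays, 14344 and 6881 on the shNontarget arrays, 16176 and 17426 on the shBEX2-1 arrays, and 20491 and 19373 on the shBEX2-2 arrays. Every knockdown array lay above every control array, before scaling as well as after it. After scaling KRT8 rose by 1.02 on the log2 scale (SE 0.218, 95% interval 0.53 to 1.51, n = 4 against 4), a 2.03-fold change (limma adjusted p = 0.0165), and the two-sided exact permutation test gave p = 0.0286, the smallest that 4 against 4 arrays allow. Without shBEX2-1 replicate 1 the log2 change was 0.98 (limma adjusted p = 0.0552) and without shBEX2-2 replicate 1 it was 1.03 (limma adjusted p = 0.055), so the call was lost in both. The lowest control value was that of shNontarget replicate 2, and against the shControl arrays alone the log2 change was 0.79 (limma adjusted p = 0.00109). Against the shNontarget arrays alone it was 1.25 and missed the threshold (limma adjusted p = 0.0713). A dimmer KRT8 probe, also above background on all arrays, differed by 0.65 on the log2 scale. Both KRT8 probes, and both KRT18 probes, are placed by the array design (hg19) on chromosomes other than those of the genes, and whether related sequences elsewhere in the genome add to their signal was not tested.

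KRT18, the type I partner of KRT8, had scaled log2 levels of 7.30 and 7.16 (shControl), 7.37 and 6.78 (shNontarget), 7.79 and 7.66 (shBEX2-1) and 7.49 and 7.48 (shBEX2-2). The groups did not overlap, but the difference of 0.46 (SE 0.182, 95% interval 0.04 to 0.87) missed the threshold (limma adjusted p = 0.141; two-sided exact permutation p = 0.0286). With quantile normalization KRT18 did pass, over the 4 knockdown arrays and in each subline (limma). Its raw intensities did overlap, at 73012 to 123198 on control and 97862 to 112844 on knockdown arrays. Within each array the KRT8 level moved relative to the KRT18 level by 0.57 on the log2 scale. This shift had a two-sided exact permutation p of 0.0286 (n = 4 against 4), or 0.0571 adjusted over the 4 partner pairs tested. The adjusted value is lowered by the tied KRT6A and KRT16 pair, whose test is not read below, and no call is made from it.

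KRT7 and KRT19, the pair that marks bile duct cells, showed the smallest differences of the biliary keratins. KRT7 had scaled log2 levels of 8.32 and 8.23 (shControl), 8.53 and 8.15 (shNontarget), 8.66 and 8.56 (shBEX2-1) and 8.23 and 8.22 (shBEX2-2). The shBEX2-1 arrays were the highest and the shBEX2-2 arrays lay among the controls, so the knockdown difference of 0.11 (95% interval -0.31 to 0.53) was within the spread (limma adjusted p = 0.755), and its direction turned under quantile normalization (-0.06). KRT19 levels were 8.26 and 8.21 (shControl), 8.24 and 7.67 (shNontarget), 8.34 and 8.33 (shBEX2-1) and 8.24 and 8.26 (shBEX2-2). The difference for KRT19 was 0.20 (95% interval -0.22 to 0.62, limma adjusted p = 0.542). The KRT7 level relative to KRT19 shifted by -0.09 within arrays, with a two-sided exact permutation p of 0.486 (also 0.486 adjusted over the pairs, n = 4 against 4).

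KRT23, a type I keratin of simple and glandular epithelia, gave intensities of 221 and 211 (shControl), 100 and 48 (shNontarget), 25 and 22 (shBEX2-1) and 29 and 21 (shBEX2-2). The shNontarget arrays lay between the shControl and the knockdown arrays. KRT23 fell by 1.89 on the log2 scale (SE 0.43, 95% interval -2.85 to -0.92; limma adjusted p = 0.0218; two-sided exact permutation p = 0.0286, n = 4 against 4). Against the shControl arrays alone the log2 change was -2.63 (limma adjusted p = 0.000326) and against the shNontarget arrays alone -1.14 (limma adjusted p = 0.16). The call was also lost when any 1 of 5 arrays was left out (shBEX2-1 replicate 2, either shBEX2-2 array or either shControl array), with log2 changes of -1.92 to -1.59 and limma adjusted p from 0.0585 to 0.0698. With normexp background correction and an offset of 50, which compresses low intensities, the log2 change was -0.79 (limma adjusted p = 0.0599). The second KRT23 probe gave 44 and 41 units on the shControl arrays and was not well above background on any other array (3 to 15 units). It is shown because it reads a coding stretch of the gene, at chr17:39081720-39081779 of hg19 on the minus strand.
KRT23 second probe: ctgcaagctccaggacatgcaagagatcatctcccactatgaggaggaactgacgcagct

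KRT6A and KRT16, the pair induced in injured and hyperproliferative epidermis, moved in opposite directions. The KRT6A probe gave 11 to 17 intensity units on the control arrays, where it was never well above background. It gave 26 and 37 on the shBEX2-1 arrays and 39 and 50 on the shBEX2-2 arrays, above background on all 4. The measured KRT6A values were 3.44-fold higher in knockdown cells, a fold that rests on background readings on the control arrays. It is not a bound, since on shControl replicate 1 the KRT39 probe gave 18 units and was not above background. KRT6A entered the test through these 4 arrays, so its limma adjusted p of 0.00206 is not read as support. With normexp background correction its log2 change was 0.64 (limma adjusted p = 0.00397). The related KRT6B did not follow it, with 46 to 112 units on control and 37 to 55 on knockdown arrays and a log2 difference of -0.50 that did not pass the test (limma adjusted p = 0.302).

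KRT16 gave 128 and 161 (shControl), 153 and 88 (shNontarget), 33 and 51 (shBEX2-1) and 41 and 43 intensity units (shBEX2-2). Every knockdown array lay below every control array. KRT16 fell by 1.18 on the log2 scale (SE 0.204, 95% interval -1.65 to -0.72; limma adjusted p = 0.00713; two-sided exact permutation p = 0.0286, n = 4 against 4). With normexp background correction the log2 change was -0.45 (limma adjusted p = 0.0514), and against the shNontarget arrays alone it was -1.10 (limma adjusted p = 0.105). Within arrays the measured KRT6A level shifted by 2.97 on the log2 scale relative to KRT16. KRT6A was at background on the control arrays, so no test is read from this shift. The pair KRT4 and KRT13 shifted by 0.31 (two-sided exact permutation p = 0.343, adjusted 0.457, n = 4 against 4). That adjusted value also counts the KRT6A and KRT16 pair. KRT5 with KRT14 and KRT1 with KRT10 were not compared because the type II partner was well above background on fewer than 4 arrays.

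Besides these 4, the arrays of both groups were also fully separated for KRT13, KRT18 and KRT31, which gave 7 of 27 tested keratins, or 25.9%, beside 22.2% of all tested genes. KRT13, a keratin of wet squamous mucosa, had scaled levels of -4.38 to -4.17 on control and -4.86 to -4.43 on knockdown arrays, and its difference of -0.44 missed the threshold (limma adjusted p = 0.173). KRT31, a type I hair cortex keratin, had -4.07 to -3.88 and -4.41 to -4.30, a difference of -0.38 (limma adjusted p = 0.173). Both were dim, and on the knockdown arrays KRT13 gave 16.4 to 29.3 and KRT31 gave 22.3 to 30.2 intensity units.

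**Figure D2:**
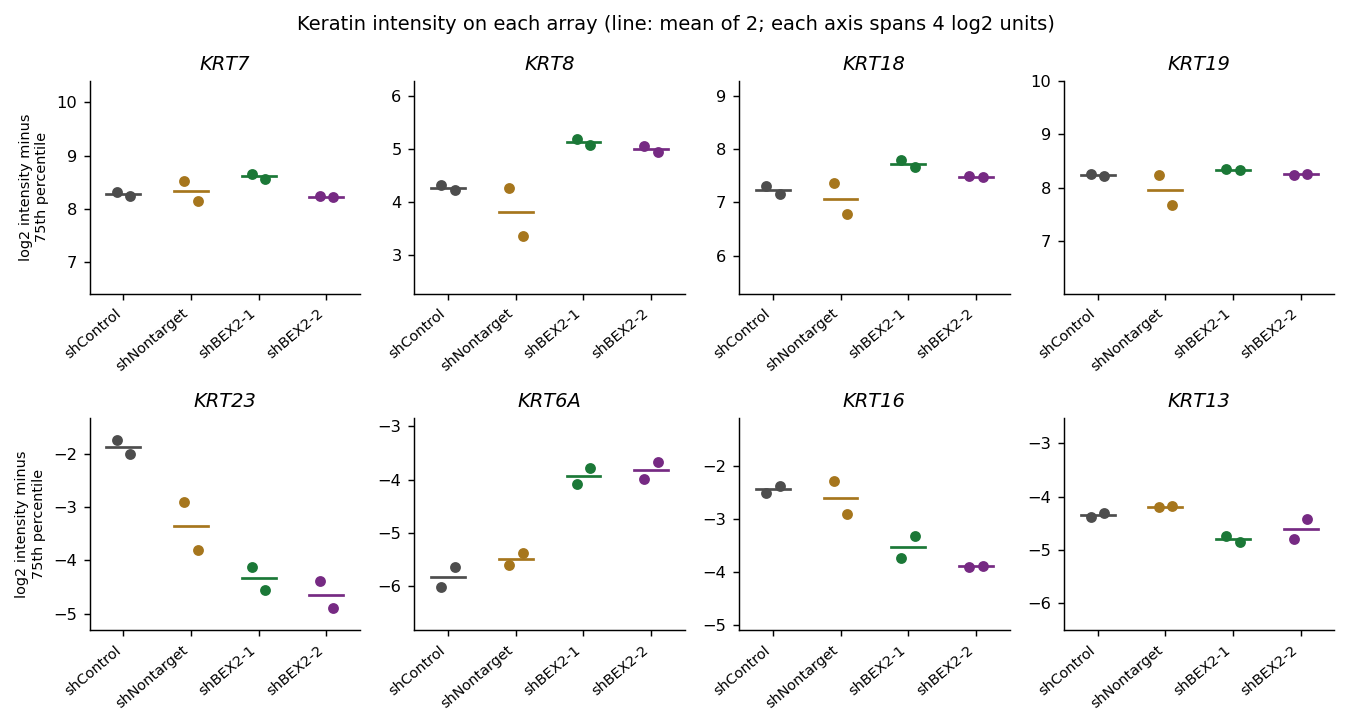
Scaled log2 intensity of 8 keratins on each of the 8 arrays, by vector, with the mean of the 2 arrays as a line and axes that all span 4 log2 units. All 4 knockdown arrays lay above the controls for KRT8, KRT18 and KRT6A and below them for KRT23, KRT16 and KRT13, while KRT7 and KRT19 overlapped.

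KRT222 and KRT33B were not tested because fewer than 4 arrays passed. KRT222 was close to 4 units on all control arrays and at 23, 8, 22 and 22 on the knockdown arrays. It was above background on 3 of the latter 4. No fold is given for KRT222, since on shControl replicate 1 the KRT39 probe gave 18 units and was still not above background. KRT33B was above background on 2 control arrays (30 and 24 units on shControl) and on no knockdown array (4 to 16 units). After scaling, its shNontarget levels (-5.79 and -5.18) overlapped those in shBEX2-2 cells (-5.30 and -5.52), and no fold is given.

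The sublines were then compared with the control vectors in a model of the 4 vectors. In shBEX2-1 cells 2 of 27 keratins passed the test, KRT6A (1.73, limma adjusted p = 0.0177) and KRT23 (-1.73, limma adjusted p = 0.0327), which is 7.41% beside 7.00% of all genes. In shBEX2-2 cells 6 of 27 passed, or 22.2% beside 9.67% of all genes. These were KRT6A upward (1.84, limma adjusted p = 0.0116) and KRT14, KRT16, KRT17, KRT23 and KRT86 downward. Both contrasts share the 4 control arrays, and KRT6A entered both only through the knockdown arrays. The counts rested on single arrays: in shBEX2-1 cells they were 0 without either shControl array or any 1 knockdown array, 14 without shNontarget replicate 1 (51.9% beside 52.9% of all genes) and 11 without shNontarget replicate 2 (40.7% beside 52.6%). In shBEX2-2 cells they were 0 without either shControl array or either shBEX2-2 array, 4 without either shBEX2-1 array, 16 without shNontarget replicate 1 (59.3% beside 51.5%) and 10 without shNontarget replicate 2 (37.0% beside 54.5%).

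KRT14 and KRT17, type I keratins of basal and of appendage or stressed epithelium, showed the widest gap between the sublines. KRT14 gave 781 and 837 (shControl), 651 and 244 (shNontarget), 218 and 332 (shBEX2-1) and 126 and 106 intensity units (shBEX2-2). KRT17 gave 899 and 974 (shControl), 637 and 293 (shNontarget), 258 and 391 (shBEX2-1) and 142 and 150 units (shBEX2-2). After scaling, shNontarget replicate 2 (-1.45 for KRT14 and -1.18 for KRT17) lay below both shBEX2-1 arrays (-1.02 and -0.63 for KRT14, -0.77 and -0.39 for KRT17), and the shBEX2-2 arrays were below all others. In shBEX2-2 cells KRT14 fell by 2.05 (SE 0.347, limma adjusted p = 0.019) and KRT17 fell by 1.87 (SE 0.275, limma adjusted p = 0.0124) on the log2 scale. In shBEX2-1 cells the differences were -0.44 (limma adjusted p = 0.534) and -0.36 (limma adjusted p = 0.518), and that of KRT17 turned to 0.12 against the shNontarget arrays alone. Over all 4 knockdown arrays the log2 differences were -1.24 for KRT14 (limma adjusted p = 0.138) and -1.12 for KRT17 (limma adjusted p = 0.156).

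The probes of these keratins are shown because KRT14, KRT16 and KRT17 are close relatives in sequence and their signals could be shared. Capitals mark the 32 bases, of the 43 that overlap in the best ungapped alignment, at which the KRT14 and KRT16 probes are identical (74.4%). The KRT14 probe lies at chr17:39740013-39740072 and the KRT17 probe at chr17:39776976-39777035 (hg19, minus strand for both), and the design gives no position for the KRT16 probe. Cross-hybridization between them was not tested.
KRT14 probe: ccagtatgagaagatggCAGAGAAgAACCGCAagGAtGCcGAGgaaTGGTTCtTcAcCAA
KRT16 probe: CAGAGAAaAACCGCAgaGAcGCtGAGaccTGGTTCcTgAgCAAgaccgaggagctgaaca
KRT17 probe: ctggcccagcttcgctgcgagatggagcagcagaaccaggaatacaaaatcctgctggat

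KRT86, a type II hair keratin, gave 572 and 676 (shControl), 761 and 731 (shNontarget), 349 and 449 (shBEX2-1) and 334 and 329 intensity units (shBEX2-2). After scaling the shBEX2-1 arrays (-0.34 and -0.20) lay with the shControl arrays (-0.35 and -0.31), and the shBEX2-2 arrays (-0.89 and -0.94) were the lowest. KRT86 fell by 0.79 in shBEX2-2 cells (SE 0.117, limma adjusted p = 0.0127) and differed by -0.14 in shBEX2-1 cells (limma adjusted p = 0.553), where the sign turned (0.07) against the shControl arrays alone. KRT16 fell by 1.37 (limma adjusted p = 0.0197) and KRT23 fell by 2.04 (limma adjusted p = 0.0155) in shBEX2-2 cells, and KRT16 differed by -1.0 in shBEX2-1 cells (limma adjusted p = 0.0593). KRT8 passed in neither subline alone, with 1.09 in shBEX2-1 (limma adjusted p = 0.0591) and 0.95 in shBEX2-2 (limma adjusted p = 0.0751).

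**Figure D3:**
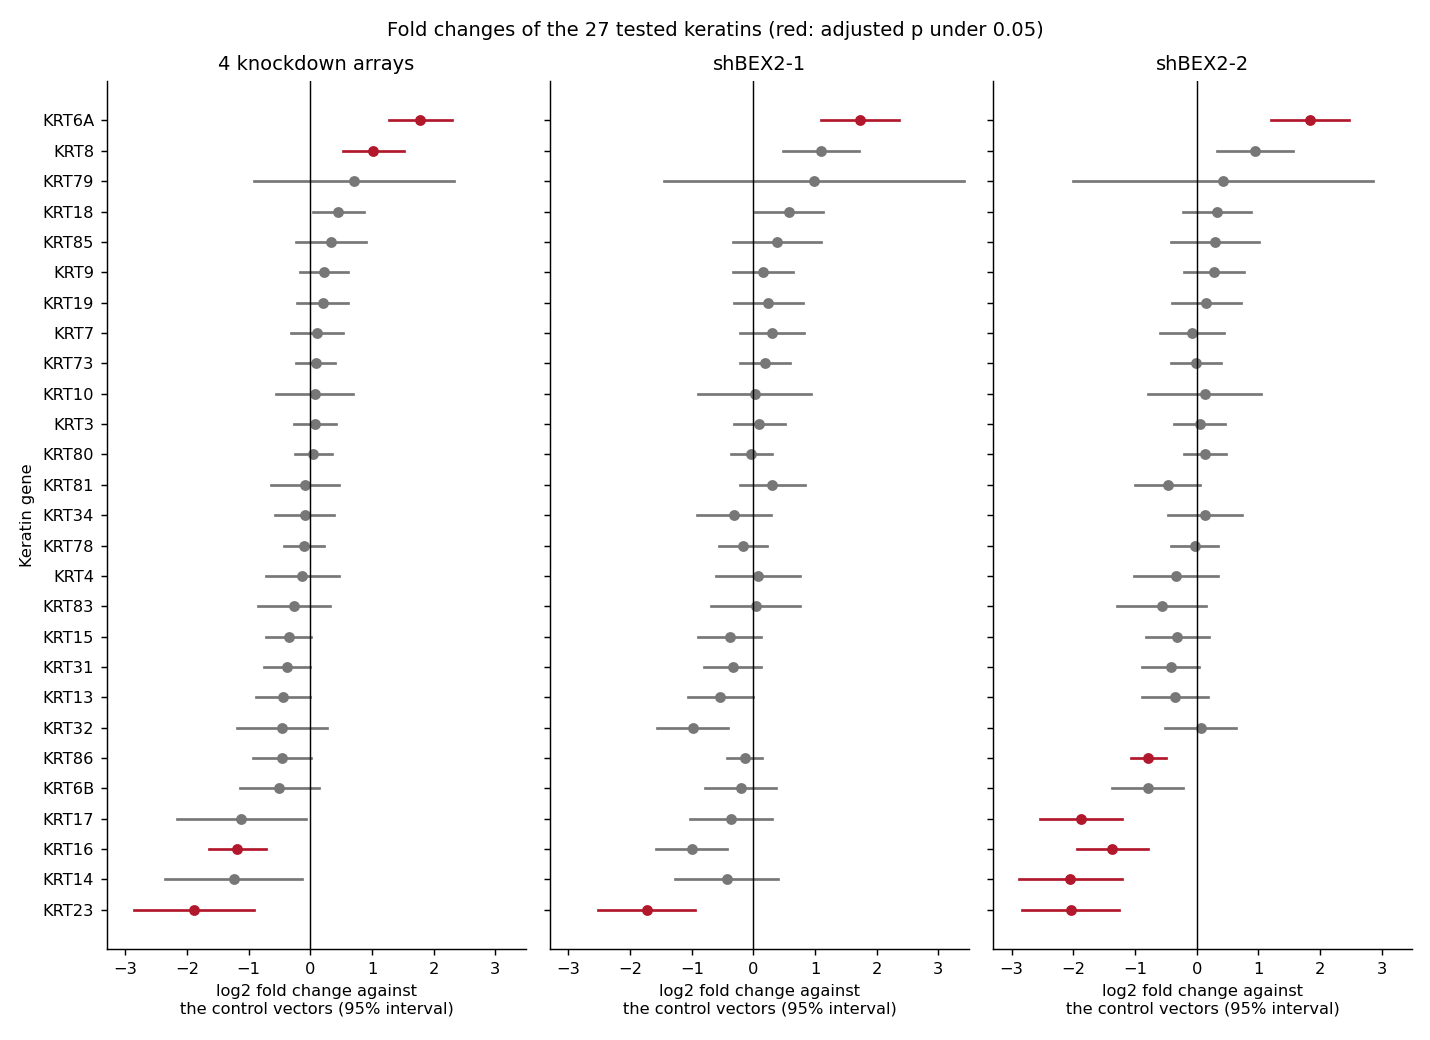
Log2 fold change and 95% interval of the 27 tested keratins against both control vectors, for all knockdown arrays and for each subline, with keratins past an adjusted p of 0.05 in red. KRT6A, above background on the knockdown arrays alone, and KRT23 passed in all 3 panels. KRT14, KRT17 and KRT86 passed in shBEX2-2 alone.

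The difference between the sublines was tested directly. With all 8 arrays none of the 27 keratins passed (limma), as was the case for all but 2 of 20464 genes (0.00977%), and 5 keratins had an unadjusted p under 0.05. KRT14 was 3.05-fold higher in shBEX2-1 than in shBEX2-2 cells (log2 difference 1.61, limma adjusted p = 0.306), KRT17 was 2.86-fold higher (1.51, limma adjusted p = 0.212), and KRT86 was 1.56-fold higher (0.65, limma adjusted p = 0.212). These 3 differences rest on the same 4 arrays whether or not the shNontarget arrays are kept, and only their error changes. Without both of the latter 8 of 27 keratins passed, or 29.6% beside 14.6% of all genes, an analysis chosen after the data were seen. KRT14 (limma adjusted p = 0.00101), KRT17 (limma adjusted p = 0.00073), KRT7, KRT81, KRT83 and KRT86 were then higher in shBEX2-1, and KRT32 and KRT34 higher in shBEX2-2. The count was also 8 without either shNontarget array alone (29.6% beside 14.4% and 14.7% of all genes) and 0 without any 1 of the other arrays.

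Hair keratins made up 5 of these 8 and 7 of the 27 tested, and 1 of the 5 is read by the KRT83 probe that also lists KRT81. KRT81 had scaled levels of 7.96 and 7.86 in shBEX2-1 and 7.11 and 7.15 in shBEX2-2 cells, and KRT83 had 4.49 and 4.73 against 4.0 on both arrays. KRT81, KRT83 and KRT86 are type II, and KRT32 and KRT34, which lay the other way, are type I. The split by type did not extend further: the hair keratins KRT31 (type I) and KRT85 (type II) differed by 0.08 and 0.09. KRT14 and KRT17, also higher in shBEX2-1, are type I. KRT32 had -5.28 and -4.83 in shBEX2-1 against -4.00 and -4.01 in shBEX2-2 cells, and KRT34 had -1.11 and -1.14 against -0.69 and -0.66. The KRT32 probe was above background on 7 of the 8 arrays, and its lowest values were the 11.3 and 18.1 units in shBEX2-1 cells. Its difference between the sublines is therefore limited by background.

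**Figure D4:**
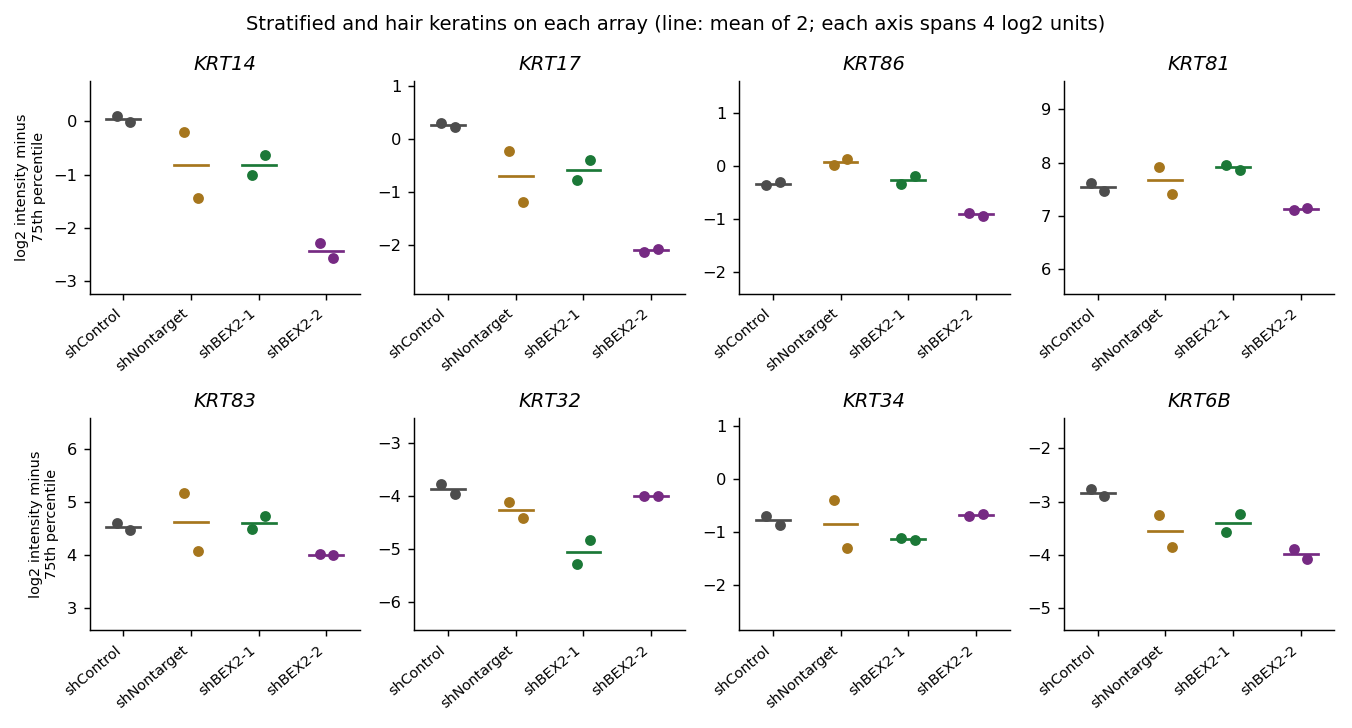
Scaled log2 intensity of the hair keratins KRT86, KRT81, KRT83, KRT32 and KRT34 and the stratified keratins KRT14, KRT17 and KRT6B on each of the 8 arrays, with the mean of 2 arrays as a line and axes spanning 4 log2 units. KRT14, KRT17, KRT86, KRT81 and KRT83 were lowest in shBEX2-2, and KRT32 was lowest in shBEX2-1.

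The control vectors themselves were compared to see how far keratins vary without a BEX2 hairpin. No keratin passed (0 of 27; 0% of all genes, limma), and 4 keratins had an unadjusted p under 0.05. These included KRT23, 2.82-fold lower in shNontarget than in shControl cells (limma adjusted p = 0.41), and KRT17, 1.95-fold lower (limma adjusted p = 0.545). The count was 12 without shNontarget replicate 1 (44.4% beside 45.1% of all genes) and 10 without shNontarget replicate 2 (37.0% beside 46.3%), where the single array left is assumed to vary as the other vectors do. Accordingly, the knockdown calls depended on which control was used. Against shControl alone 9 of 27 keratins passed, or 33.3% beside 33.4% of all genes, with KRT6A, KRT8 and KRT85 higher and KRT6B, KRT14, KRT15, KRT16, KRT17 and KRT23 lower. Against shNontarget alone only KRT6A passed (3.70% beside 1.66% of all genes), with a log2 change of 1.62 (limma adjusted p = 0.043). KRT6A entered both tests only through the knockdown arrays. Since both share the knockdown arrays, the difference between the 2 changes of a keratin is that between the control vectors, which passed for none (limma).

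**Figure D5:**
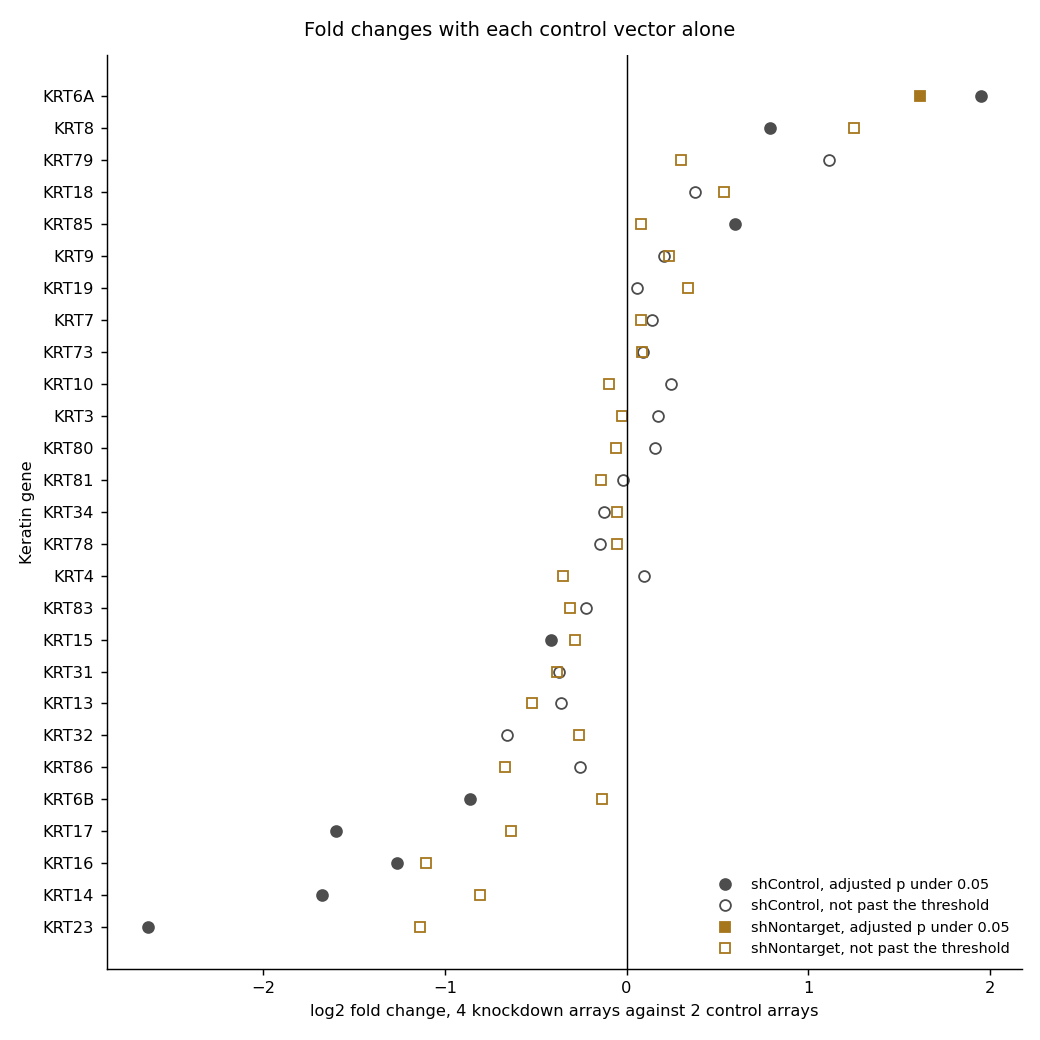
Log2 fold change of the 27 tested keratins in the 4 knockdown arrays against the shControl arrays (circles) or the shNontarget arrays (squares), filled where the adjusted p was under 0.05. KRT23 moved from -2.63 to -1.14 between the controls. KRT6A, above background on the knockdown arrays alone, was filled for both.

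The partners of the keratin cytoskeleton were read from lists of related genes. Of 17 tested desmosome and plakin genes, which anchor keratins to cell junctions, 3 fell and none rose, or 17.6% beside 12.9% of all genes (median log2 change -0.13 beside 0.03). These were PPL, which encodes the plakin periplakin (-1.0, limma adjusted p = 0.00542), DSG3, a desmosomal cadherin (-0.63, limma adjusted p = 0.0227), and DSP, which tethers keratin filaments to the desmosome (-0.56, limma adjusted p = 0.0451). Of 18 tested cornified envelope genes 2 rose and none fell, or 11.1% beside the same 12.9% (median 0.35), namely SPRR2A, a small proline-rich envelope precursor (1.86, limma adjusted p = 0.0385), and CALML3, a calmodulin-like protein of epithelia (0.98, limma adjusted p = 0.0183). Of 14 tested regulators of squamous and hair keratins 1 rose, GRHL1 (0.52, limma adjusted p = 0.0447), and 3 fell, CEBPB (-0.73, limma adjusted p = 0.00933), OVOL1 (-0.42, limma adjusted p = 0.0473) and KLF5 (-0.41, limma adjusted p = 0.0493). This was 28.6% of the list, whose median was -0.18.

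Of 10 other tested intermediate filament genes 2 rose and 1 fell, or 30.0% beside 12.9% of all genes (median 0.42). The nuclear lamins LMNB1 (1.75, limma adjusted p = 0.00238) and LMNB2 (0.98, limma adjusted p = 0.00265) rose, and BFSP1, a filament gene best known from the lens (-0.89, limma adjusted p = 0.0129), fell. Of the 84 genes for keratin-associated proteins, which embed hair keratins, 28 were tested and none passed (0% beside 12.9%, limma; median -0.03), the nearest being KRTAP19-5 (0.79, limma adjusted p = 0.0502). Against shNontarget alone PPL was the one gene named in these lists that still passed (limma adjusted p = 0.0421).

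Markers of the labelled cell type were present. Of 15 biliary markers other than keratins 12 were above background on all 8 arrays. Of the 12 tested 1 fell, the water channel AQP1 (-1.72, limma adjusted p = 0.0111), or 8.33% beside 12.9% of all genes. Of 13 hepatocyte markers ASGR1 and CPS1 were above background on all 8 arrays, TAT on 7 and APOA1 on 6. ALB, APOB, TTR, HNF4A and G6PC were above background on none, and none of the 5 tested passed (0% beside 12.9%, limma). Of 8 fibroblast and muscle markers COL1A1, LUM and ACTA2 were above background on all 8 arrays. COL1A2, COL3A1 and THY1 were above background on no array, and none of the 3 tested passed (0% beside 12.9%, limma). Of 7 blood and endothelial markers CD68, CD14, CDH5 and VWF were above background on all 8 arrays and PTPRC on 7. PECAM1 was above background on none. Of the 5 tested 2 rose, CD68 (0.99, limma adjusted p = 0.0473) and CD14 (0.54, limma adjusted p = 0.0296), and none fell. This share lay above the 12.9% of all genes and was the highest of any gene list here, though only 5 genes were tested. The summed scaled level of the 7 blood and endothelial genes was 0.946 to 1.05 times an array's 75th percentile on control and 1.41 to 1.8 times on knockdown arrays. The same sum was 111 to 183 and 128 to 138 times for the biliary, 0.316 to 0.472 and 0.26 to 0.448 times for the hepatocyte, and 1.08 to 1.25 and 0.654 to 1.73 times for the fibroblast and muscle markers. Their part in the keratin results was not tested.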

How the data were processed

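Total RNA of HuCCT1 cells was labelled with Cy3 and hybridized by the authors to Agilent arrays of design 028004. The deposited files hold the processed intensity of each spot from Feature Extraction 10.7.3.1, background-subtracted and detrended within the array, with low values set to a surrogate (19.9% to 25.9% of spots) and no scaling between arrays. A series-wide table repeats these values to within 0.497%.

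Intensities were taken to log2 minus each array's 75th percentile. Spots of a probe were averaged, outlier spots left out, and a probe counted as well above background on an array when at least 50% of its spots were. Probes so marked on at least 4 of 8 arrays were tested, the brightest per gene. Tests used limma 3.58.1 in R 4.3.3 (lmFit and eBayes with trend), in a 2-group and a 4-vector model. Benjamini-Hochberg adjustment ran over 20464 genes, with a threshold of 0.05. The tests were checked on simulated data whose spread left out the shNontarget arrays, so that check does not cover their larger spread. Exact permutation tests (70 relabellings, two-sided) and figures used Python 3.11.15, scipy 1.17.1, pandas 2.3.3 and matplotlib 3.10.9. The number of arrays limits the precision. For the folds of KRT6A and of BEX2 in shBEX2-1, each array of the dim group entered at its measured value. That value lay above the lowest value of any probe that was well above background there.

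Named genes were BEX2, the 4 biliary keratins, keratins called or with separated groups, the largest called changes of each list, and partner pairs. KRT222, KRT33B, KRT6B, KRTAP19-5 and the hair keratins of the subline comparison were added after their values were seen. The members and lists were chosen with earlier results of these data known. One gene of a marker list is not reported here. The rank product named in the methods was not run. Alternatives covered the scaling, background correction, series table, filter, probe choice, blocks, control vector, arrays left out, variance trend, a minimum log2 change of 1, the methods' t-test and the detection flag.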

Additional observations from a re-analysis of the deposited data

Results flagged for a closer look

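In 49 groups of 4 arrays on which a keratin was above background throughout, 5 held an outlying array (gap over range above Dixon's critical value for 4), which chance gives in about 1 of 20 groups. KRT8 (3.37 against 4.23 to 4.33) and KRT19 (7.67 against 8.21 to 8.26) were low on shNontarget replicate 2 among the control arrays. On shBEX2-1 replicate 1, KRT15 (1.12 against 1.24 to 1.26) and KRT80 (2.64 against 2.97 to 2.99) were low among the knockdown arrays. KRT9 was high on shBEX2-2 replicate 2 (-3.55 against -3.77 to -3.74). KRT1 and KRT76 are not among these, since each was above background in its group on the outlying array alone. KRT1 was high on shControl replicate 2 (-6.21 against -7.53 to -7.39). KRT76, a palate keratin, was at -0.57 on shControl replicate 1 against -6.86 to -5.94, or 492 intensity units against 7 to 12. Of the 22 array spots within 2 rows and columns of the KRT76 spot, 3 were also bright on that array alone, as were 72 probes in all.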

How the results depend on the processing

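The 4 keratins called in knockdown cells became 7 in the 4-vector model, 2 with normexp, 9 against shControl alone and 1 against shNontarget alone. That count was 7 by the methods' t-test at an unadjusted threshold and 2 to 6 with 1 array left out. After Benjamini-Hochberg adjustment the t-test called 4, with KRT31 in place of KRT23. The 2 calls in shBEX2-1 cells became 1 without a filter, 1 with a filter on all 8 arrays, 4 with normexp, 14 against shControl, 0 against shNontarget and 0 to 14 with 1 array left out. The 6 calls in shBEX2-2 cells became 13 and 0 against either control alone and 0 to 16 with 1 array left out. The count between sublines (0) was 8 without both shNontarget arrays and 0 to 8 with 1 array left out, and that between controls (0) was 0 to 12. Between 23 and 24 keratins were above background on all arrays kept. With normexp the median of all genes lay at 0.15 in shBEX2-1 cells and 0.12 between the sublines. The sign turned for KRT7 under quantile normalization (-0.0615 in knockdown, -0.0081 in shBEX2-1) and in shBEX2-2 with 1 array left out (-0.1771 without shNontarget replicate 2 to 0.0136 without shNontarget replicate 1), for KRT17 in shBEX2-1 against shNontarget (0.12) and for KRT86 in shBEX2-1 against shControl (0.0651). The causes were not tested.

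Whether the replicate numbers pair the arrays was not settled: replicate differences of 2 vectors correlated across genes over 0.1 in 5 of 6 vector pairs (up to 0.26) and at -0.06 in the other, and the deposited names carry 1 day for each number, which the labels do not explain. With the replicate block the counts stayed at 4, 2, 6, 0 and 0. A group of 4 with 1 array left out cannot reach an exact p under 0.05, so that test was not repeated there. Under the other settings 5 to 9 keratins reached the smallest exact p. Signal over background limits KRT6A, KRT4, KRT32, KRT222 and KRT33B. KRT13, KRT23 and KRT31 also gave low intensities on the knockdown arrays, between 16 and 31 units.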
